A study of Mus musculus with 12 samples.

Results

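Genes of the fibroblast growth factor (FGF) family were described across mouse embryonic stem (ES) cells and the embryoid bodies (EBs) made from them: the 5 ligand genes Fgf4, Fgf8, Fgf10, Fgf15 and Fgf17, and the 4 receptor genes Fgfr1, Fgfr2, Fgfr3 and Fgfr4. They were chosen by name with earlier results of these data known, 9 of the 19938 genes tested, and each was read by 1 Affymetrix probe set. The shares of all genes set beside their counts are therefore a description and not an independent test. Total RNA of 12 samples of a clone of the ES cell line D3 was hybridised, 3 samples in each of 4 groups: undifferentiated ES cells at day 0, EBs at day 4, EBs given the solvent DMSO for 12 h, and EBs given all-trans retinoic acid (ATRA) at 5 micromolar for 12 h. EBs are aggregates formed in dishes to which the cells do not attach, without the cytokine LIF, and from the labels the 12 h could be the end of the 4 days or follow them. All groups come from 1 clone, the ES medium contained serum, and no group received ATRA without EB formation. Aggregation, loss of LIF and differentiation come together in every EB sample, so they cannot be told apart in a comparison with ES cells. Likewise, DMSO against untreated day 4 EBs joins the solvent with any added culture time, and ATRA against untreated day 4 EBs joins ATRA with both. The labels call the 3 samples biological replicates.

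FGF ligands are secreted proteins that bind receptor tyrosine kinases together with heparan sulfate, a sugar chain of the cell surface. The activated receptor signals through the adaptors Frs2 and Grb2 to Ras and the kinase ERK. In ES cells, FGF4 is the main ligand that drives ERK and prepares the cells to leave the pluripotent state, and in the gastrulating embryo FGF8, FGF4 and FGFR1 act in the primitive streak and posterior axis, where retinoic acid and FGF signalling oppose each other.

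Levels are log2 values of a probe set, given as mean ± SD (n = 3 arrays), and differences are log2 differences ± SE from a limma fit to all 12 arrays, called at an adjusted p under 0.05 over all genes. The level of one gene cannot be set against that of another on this array. As a background level, 1027 olfactory receptor genes, which ES cells hardly use, had a median of 5.52 and a 95th percentile of 7.08, and each of the 9 genes stood above at least 99.4% of them in every group. The array medians lay between 7.76 and 7.86, above that 95th percentile, so standing above the olfactory receptor genes does not by itself show expression. The spread of values was smallest in ES replicate 2 and EB replicate 2, with interquartile ranges of 3.50 for both against up to 3.65 in the others. Markers of pluripotent cells were high throughout, with a mean over 8 genes between 12.63 and 12.80 in the 12 arrays. Where RNA of whole cultures is read, fewer cells of a type and less RNA per cell cannot be told apart.

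Between ES cells and day 4 EBs, the ligand genes Fgf4 and Fgf10 rose most, and the receptor gene Fgfr3 fell by a similar amount. Of the 9 genes, 4 were called higher (Fgf4, Fgf10, Fgf17, Fgfr4) and 3 lower (Fgf15, Fgfr1, Fgfr3), where 34.7% of all genes were called, 17.8% higher and 16.9% lower. The median difference of the 9 genes was 0.14, against -0.00043 for all genes. The 3 and 3 arrays did not overlap for 8 of the 9 genes, as for 41.3% of all genes. The count of higher genes was 2 without ES replicate 2, without ES replicate 3 or without EB replicate 3, where both Fgf17 and Fgfr4 missed the threshold, and 3 without any other single array of these groups.

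With ATRA against DMSO, Fgf4, Fgf10 and Fgf17 fell and Fgfr3 rose. Of the 9 genes, 3 were called lower and 1 higher, where 13.3% of all genes were called, 7.05% lower and 6.26% higher. The median difference was -0.12, against 0.01 for all genes, and the arrays did not overlap for 5 of the 9, as for 39.6% of all genes. The single gene called higher, Fgfr3, was not called without DMSO replicate 2, ATRA replicate 1 or ATRA replicate 2.

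DMSO-treated EBs were also set against untreated day 4 EBs. In limma, 0 of the 9 were called, and 2 (Fgf10 and Fgfr4) had an unadjusted p under 0.05; among all genes 0.747% were called, 0.537% higher and 0.211% lower. The arrays did not overlap for 3 of the 9 (Fgf10, Fgfr1 and Fgfr4), as for 22.4% of all genes. The largest differences were 0.20 ± 0.07 for Fgfr4 and 0.20 ± 0.07 for Fgf10. They were close in size to the called day 4 differences from ES cells of Fgfr4 (0.23 ± 0.07) and Fgf17 (0.22 ± 0.08). A missed call here therefore does not show equal levels. ATRA-treated EBs against ES cells gave 3 genes higher (Fgf4, Fgf10, Fgfr4) and 3 lower (Fgf15, Fgfr1, Fgfr3), where 36.6% of all genes were called, 17.5% higher and 19.1% lower, and the arrays did not overlap for 8 of the 9, as for 47.4% of all genes. The remaining pairs of groups serve the order of levels. ATRA against day 4 EBs gave 2 genes higher and 4 lower (all genes 18.4%, of which 7.79% higher and 10.6% lower), with 7 of the 9 not overlapping against 36.7%. The lower genes numbered 2 without EB replicate 2, ATRA replicate 2 or ATRA replicate 3, where Fgf10 and Fgf15 missed the threshold. DMSO-treated EBs against ES cells gave 5 higher and 3 lower (all genes 39.0%, of which 18.4% higher and 20.6% lower), with 8 not overlapping against 47.5%. Of these, Fgf17 (0.24 ± 0.08, adjusted p = 0.0231) lost its call without ES replicate 1, DMSO replicate 1 or DMSO replicate 2 (adjusted p = 0.0583 to 0.0973). These comparisons share groups with one another (DMSO, ES or EB arrays), so their values are set side by side and not counted as separate evidence.

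**Figure D1:**
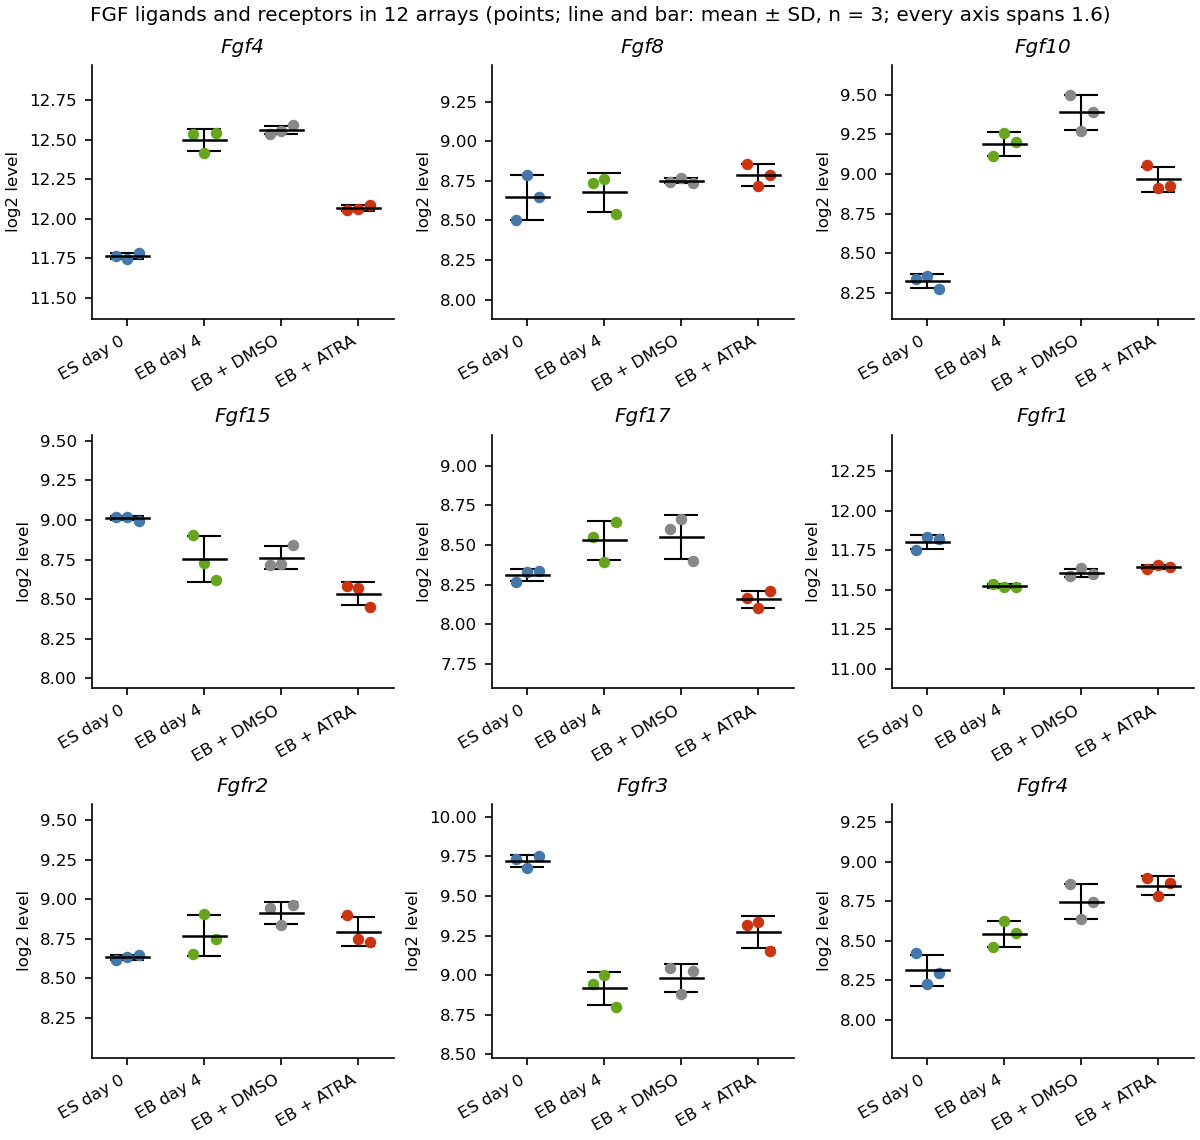
Log2 level of each gene in the 12 arrays (vertical axis, each spanning 1.6 log2 units) by group (horizontal axis), with 1 point an array and the group mean ± SD (n = 3) in black. Fgf4 and Fgf10 are lowest in ES cells and lower with ATRA than with DMSO, Fgfr3 is highest in ES cells and higher with ATRA than with DMSO, and the 4 groups of Fgf8 overlap.

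Fgf4, the ligand gene of pluripotent cells, stood at 11.77, 11.75 and 11.78 in the 3 ES arrays, 12.53, 12.42 and 12.54 in day 4 EBs, 12.54, 12.55 and 12.59 with DMSO, and 12.05, 12.06 and 12.09 with ATRA. Day 4 and DMSO arrays overlapped, and all of them lay above the ATRA arrays, which in turn lay above the ES arrays. Fgf4 rose by 0.73 ± 0.04 (1.66-fold, adjusted p = 8.15e-08) from ES cells to day 4 EBs and fell by 0.49 on the log2 scale with ATRA (SE 0.04, 1.41-fold lower, adjusted p = 1.26e-05). The ATRA level stayed 0.30 ± 0.04 above ES cells (adjusted p = 1.63e-04). In the order of levels, DMSO, EB, ATRA and ES, the pair of DMSO and EB was the only one of neighbours that did not pass (0.06 ± 0.04, adjusted p = 0.509).

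Fgf10, a mesenchymal ligand of the FGFR2 splice form found in epithelia and best known from limb and lung buds, had the widest span. Its values were 8.34, 8.36 and 8.27 in ES cells, 9.11, 9.26 and 9.20 in day 4 EBs, 9.50, 9.27 and 9.39 with DMSO, and 9.06, 8.91 and 8.93 with ATRA. No group overlapped another. The group means spanned 1.07, a wider span than that of 96.6% of all genes. Fgf10 rose by 0.87 ± 0.07 (1.83-fold, adjusted p = 5.19e-07) at day 4 and was lower with ATRA than with DMSO (-0.42 ± 0.07, adjusted p = 8.55e-04). DMSO against day 4 EBs did not pass (adjusted p = 0.178). ATRA lay between ES cells (0.64 ± 0.07 above them, adjusted p = 7.24e-06) and day 4 EBs (-0.23 ± 0.07, adjusted p = 0.0314). The call against day 4 EBs ended without EB replicate 2 or 3 or without ATRA replicate 2 or 3 (adjusted p = 0.0896 to 0.121).

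Upstream sequence is shown for the 3 genes whose levels moved most, Fgf4 and Fgf10, which rose at day 4 and fell with ATRA, and Fgfr3, which did the opposite. Each is the 250 bases before the annotated start of the gene in RefSeq (GRCm38.p6), 5′ to 3′ on the strand of the gene, and capitals mark matches on either strand to a GC box (GGGCGG) or a CCAAT box (CCAAT). Windows for 5 of the 9 genes were found in the RefSeq table.
Fgf4 (chr7:144861136-144861385, plus strand): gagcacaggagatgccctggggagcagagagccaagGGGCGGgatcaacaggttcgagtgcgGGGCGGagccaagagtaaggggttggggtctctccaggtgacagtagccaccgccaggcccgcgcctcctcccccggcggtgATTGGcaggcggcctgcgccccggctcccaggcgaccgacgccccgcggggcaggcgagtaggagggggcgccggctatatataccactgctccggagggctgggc
Fgf10 (chr13:118714449-118714698, plus strand): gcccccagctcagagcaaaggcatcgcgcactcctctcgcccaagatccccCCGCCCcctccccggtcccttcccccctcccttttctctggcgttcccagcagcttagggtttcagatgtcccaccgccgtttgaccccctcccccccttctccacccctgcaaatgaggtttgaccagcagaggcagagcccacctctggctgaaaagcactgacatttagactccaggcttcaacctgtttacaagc
Fgfr3 (chr5:33721474-33721723, plus strand): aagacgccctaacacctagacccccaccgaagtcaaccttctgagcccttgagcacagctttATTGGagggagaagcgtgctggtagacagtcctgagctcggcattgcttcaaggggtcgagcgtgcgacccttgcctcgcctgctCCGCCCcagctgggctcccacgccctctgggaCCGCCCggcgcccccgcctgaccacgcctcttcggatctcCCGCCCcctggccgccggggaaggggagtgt
The 3 windows were rich in G and C, at 71.2% for Fgf4, 61.2% for Fgf10 and 66.8% for Fgfr3, against a median of 52.4% over 32851 windows of all genes. GC boxes numbered 2 in Fgf4, 1 in Fgf10 and 3 in Fgfr3, and 32.7% of all windows held at least 1. Counting back from the start, a CCAAT box lay at position -106 in Fgf4 and -188 in Fgfr3, with none in Fgf10, where 33.8% of all windows held one. Neither the nuclear receptor motif AGGTCA (14.0% of all windows), the octamer ATGCAAAT (1.6%) nor the SOX motif CATTGT (10.7%) was found in these 3 windows. The matches share no bases with one another, and they describe letters in a short window only.

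Fgf17, a ligand of the FGF8 subfamily, lay at 8.27, 8.33 and 8.34 in ES cells, 8.55, 8.40 and 8.64 in day 4 EBs, 8.60, 8.66 and 8.40 with DMSO, and 8.16, 8.10 and 8.21 with ATRA. Every ATRA array was below every array of the other groups. It was lower with ATRA than with DMSO (-0.40 ± 0.08, 1.32-fold, adjusted p = 0.00371) and than in day 4 EBs (-0.37 ± 0.08, adjusted p = 0.0045), while its difference from ES cells did not pass (-0.15 ± 0.08, adjusted p = 0.144). The day 4 rise was small (0.22 ± 0.08, adjusted p = 0.0404). That call ended without any 1 of ES replicates 1, 2 and 3 and EB replicates 1 and 3 (adjusted p = 0.0653 to 0.161), and also with the replicate number as a block (adjusted p = 0.062) and in a fit of the 2 groups alone (adjusted p = 0.0647).

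Fgf8, the founding member of that subfamily and a signal of the primitive streak and the midbrain border, passed the threshold in no pair of groups. Its arrays gave 8.50, 8.79 and 8.65 in ES cells, 8.74, 8.76 and 8.54 at day 4, 8.74, 8.77 and 8.74 with DMSO, and 8.86, 8.72 and 8.79 with ATRA. The groups overlapped in all comparisons. ATRA against DMSO gave 0.04 ± 0.08, with a 95% interval from -0.13 to 0.21, and the group means spanned 0.14. The span of Fgf8 was wider than that of 26.5% of all genes. Its widest difference, ATRA against ES cells (0.14 ± 0.08, adjusted p = 0.182), passed without ES replicate 2 (0.21, adjusted p = 0.0448) and with array weights (adjusted p = 0.0231). Primitive streak markers beside it had 2 of 6 genes higher and 1 lower at day 4 (0 lower without ES replicate 2, ES replicate 3 or EB replicate 1), and 1 of 6 lower with ATRA against DMSO, where 34.7% and 13.3% of all genes were called. Lhx1, 1 of the 2 higher genes, stood at 7.06 ± 0.11 in ES cells, near the 95th percentile of the olfactory receptor genes (7.08). The size of its rise is therefore uncertain. Mesp1 and Wnt3 had means between 6.84 and 7.14, at or near that background level. The part of the 6 markers in the Fgf8 values was not tested.

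Fgf15, the mouse counterpart of the human FGF19 gene and a target of FGF and homeobox factors in the neural tube, was highest in ES cells. Its values were 9.02, 9.02 and 8.995 in ES cells, 8.91, 8.73 and 8.62 at day 4, 8.72, 8.72 and 8.84 with DMSO, and 8.58, 8.57 and 8.45 with ATRA. The ES arrays were the highest and the ATRA arrays the lowest, and the groups between them overlapped. From ES cells it was lower by day 4 (-0.26 ± 0.07, adjusted p = 0.0111) and further from them with ATRA (-0.48 ± 0.07, 1.39-fold, adjusted p = 1.50e-04). The day 4 call ended without EB replicate 3 (adjusted p = 0.0519). ATRA against DMSO gave -0.23 ± 0.07 and just missed the threshold (adjusted p = 0.0508), with an adjusted p of 0.0168 to 0.189 over 14 alternatives. ATRA against day 4 EBs passed (adjusted p = 0.0489), but not in 6 of 7 alternatives, which were those with a replicate block (adjusted p = 0.0588) and those without EB replicate 1 or 2 or without any 1 of the 3 ATRA arrays (adjusted p = 0.0752 to 0.178). In the RefSeq annotation Fgf15 and Fgf3 are the protein-coding genes on either side of Fgf4. At day 4 the differences of these 3 neighbours were 0.73 for Fgf4, -0.26 for Fgf15 and 0.15 for Fgf3, which was not called (adjusted p = 0.201).

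Among the receptors, Fgfr1, the receptor gene most linked to ES cells and the epiblast, stood at 11.75, 11.83 and 11.82 in ES cells, 11.53, 11.51 and 11.52 at day 4, 11.58, 11.64 and 11.60 with DMSO, and 11.63, 11.66 and 11.65 with ATRA. The ES arrays lay above all others, by small amounts. Fgfr1 was lower at day 4 (-0.28 ± 0.04, 1.21-fold, adjusted p = 1.52e-04) and with ATRA against ES cells (-0.16 ± 0.04, adjusted p = 0.00863). The latter call ended with median centring (-0.11, adjusted p = 0.0973). ATRA against DMSO gave 0.04 ± 0.04, with a 95% interval from -0.05 to 0.13.

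Fgfr2, the receptor gene of epithelia and extraembryonic lineages, was at 8.62, 8.64 and 8.65 in ES cells, 8.65, 8.91 and 8.75 at day 4, 8.95, 8.84 and 8.97 with DMSO, and 8.90, 8.75 and 8.73 with ATRA. The ES arrays were lowest and the other groups overlapped. None of the 4 comparisons above was called for it (ATRA against DMSO -0.12 ± 0.07, adjusted p = 0.299; day 4 EBs against ES cells 0.14 ± 0.07, adjusted p = 0.156). DMSO-treated EBs against ES cells, at the ends of its order, differed by 0.28 ± 0.07 (adjusted p = 0.00576).

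Fgfr3, a receptor gene of cartilage and the nervous system, had the widest change of the receptors. Its values were 9.73, 9.68 and 9.75 in ES cells, 8.95, 9.002 and 8.80 at day 4, 9.04, 8.88 and 9.02 with DMSO, and 9.32, 9.34 and 9.15 with ATRA. The ES arrays were highest, the ATRA arrays came next, and day 4 and DMSO arrays overlapped at the bottom. Fgfr3 was lower at day 4 (-0.80 ± 0.07, 1.75-fold, adjusted p = 1.53e-06) and higher with ATRA than with DMSO (0.29 ± 0.07, 1.22-fold, adjusted p = 0.0146). Without DMSO replicate 2, ATRA replicate 1 or ATRA replicate 2 the latter call ended (0.24 to 0.26, adjusted p = 0.0629 to 0.0703). ATRA remained below ES cells (-0.45 ± 0.07, adjusted p = 2.16e-04).

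Fgfr4, a receptor gene of endoderm and liver that FGF15 binds with the co-receptor beta-Klotho, was at 8.42, 8.23 and 8.30 in ES cells, 8.46, 8.62 and 8.55 at day 4, 8.86, 8.64 and 8.74 with DMSO, and 8.90, 8.78 and 8.87 with ATRA. The ES arrays were below all others, and the DMSO and ATRA arrays overlapped. It was higher with ATRA than in ES cells (0.53 ± 0.07, 1.45-fold, adjusted p = 5.94e-05) and than in day 4 EBs (0.30 ± 0.07, adjusted p = 0.00902), but ATRA against DMSO did not pass (0.10 ± 0.07, adjusted p = 0.399). The rise at day 4 was 0.23 ± 0.07 (adjusted p = 0.0221) and lost its call without ES replicate 2 or 3 or EB replicate 2 or 3 (adjusted p = 0.0564 to 0.0831), in a fit of the 2 groups alone (adjusted p = 0.0527), and without ES replicate 2 and EB replicate 2 together (0.15, adjusted p = 0.202). Klb, the gene of beta-Klotho, rose by 1.47 ± 0.09 at day 4 (2.77-fold) and was at 8.49 ± 0.13 in ES cells, 9.96 ± 0.15 at day 4, 10.20 ± 0.13 with DMSO and 9.99 ± 0.06 with ATRA.

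**Figure D2:**
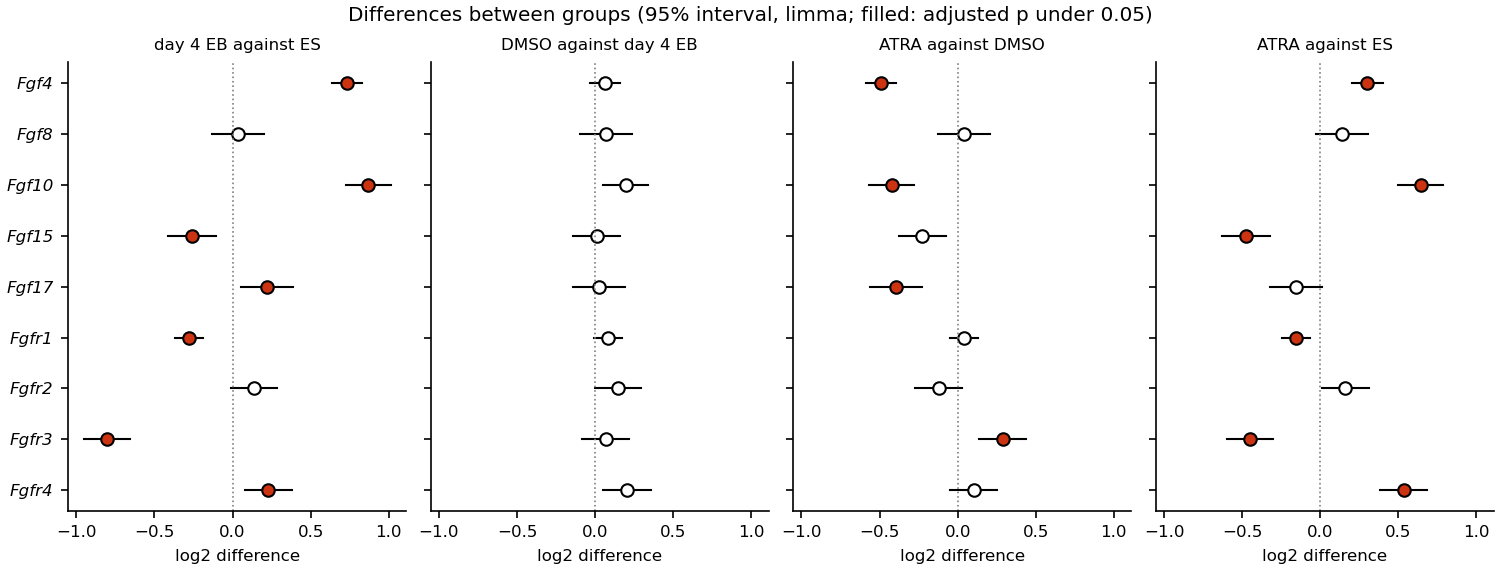
Log2 difference of each gene (horizontal axis) in the 4 comparisons, with the 95% interval from limma as a line and a filled point where the adjusted p was under 0.05. At day 4 the points run from -0.80 for Fgfr3 to 0.87 for Fgf10, while all 9 intervals of DMSO against day 4 EBs lie between -0.14 and 0.36.

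The genes most like each of the widely varying members were sought over the 12 arrays among 2725 other genes whose group means spanned at least 0.5. The 12 arrays hold only 4 groups, so a high r says mainly that the group means have one shape. Most like Fgf4 were Trh, the thyrotropin-releasing hormone gene (Pearson r = 0.994), Otx2, a homeobox gene of the primed epiblast and forebrain (r = 0.994), and Fut9, which makes the ES cell surface antigen SSEA-1 (r = 0.993). Gpc6, a glypican gene (r = 0.990), Sema5b (r = 0.988) and Acss1 (r = 0.988) were most like Fgf10. Plin2, a lipid droplet coat gene (r = 0.978), St6galnac4 (r = 0.978) and Slc43a3 (r = 0.977) were most like Fgfr3, and Dhrs7 (r = 0.967), Pdk2 (r = 0.965) and Nxph4 (r = 0.960) most like Fgfr4. Between members, Fgf4 and Fgf10 had r = 0.932, and Fgf4 and Fgfr3 r = -0.952.

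**Figure D3:**
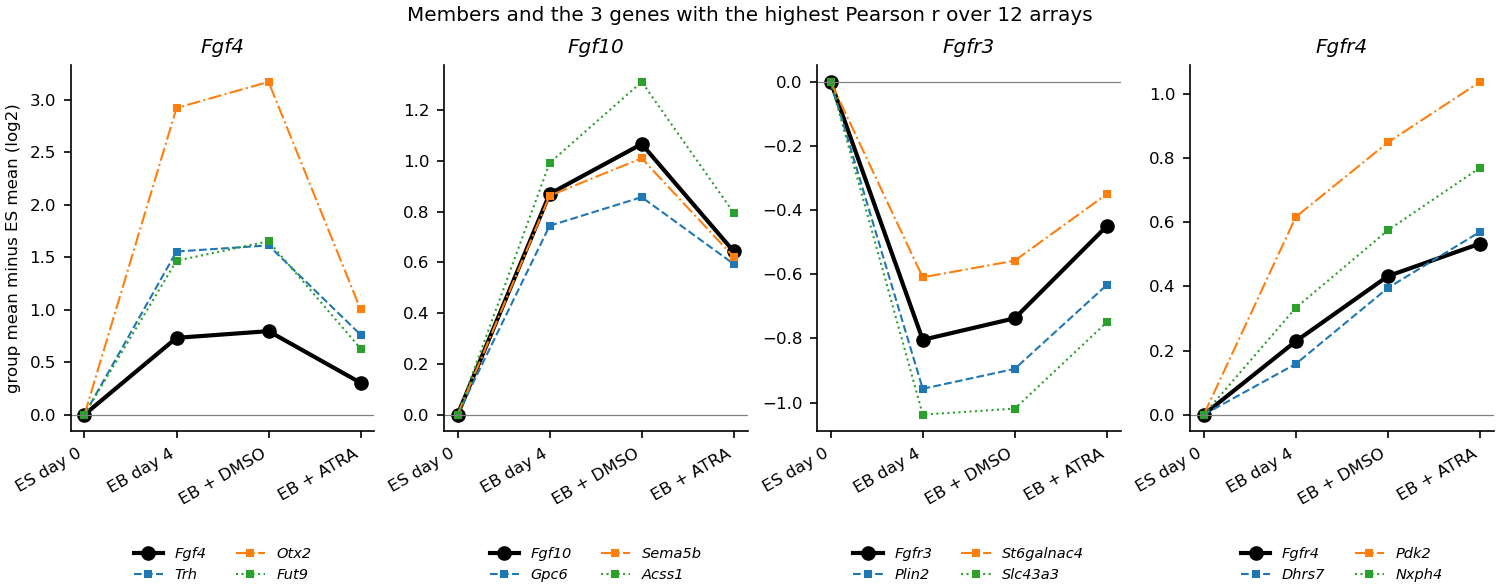
Group means minus the ES mean on the log2 scale (vertical axis) for 4 members in black and the 3 genes most like each over 12 arrays in colour, across the 4 groups (horizontal axis). Otx2 has the shape of Fgf4 on a larger scale, rising from 7.75 in ES cells to 10.92 with DMSO and standing at 8.75 with ATRA.

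The other genes of the pathway were taken as 4 lists, whose counts stand against 34.7% of all genes called at day 4 (17.8% higher, 16.9% lower) and 13.3% with ATRA against DMSO (6.26% higher, 7.05% lower). Of the other 17 FGF ligand genes, 2 were higher and 3 lower at day 4, with a list median of -0.03, a share near that of all genes, as was the share with ATRA. Fgf5, the ligand gene that marks the primed epiblast, rose by 1.12 ± 0.13, from 7.73 ± 0.34 in ES cells to 8.86 ± 0.09, and Fgf11, an intracellular member of the family, by 0.44 ± 0.06. Fgf7, a ligand gene of mesenchyme and fibroblasts, fell by 1.86 on the log2 scale (3.63-fold), from 9.10 ± 0.17 to 7.24 ± 0.11, and Fgf2, widely made by fibroblasts, by 0.67. The day 4 level of Fgf7 lay close to the 95th percentile of the olfactory receptor genes (7.08), so the size of its fall is uncertain. Fgf1 was the third lower gene (-0.27 ± 0.06). With ATRA against DMSO 0 of the 17 were called higher and 2 lower in limma (4 had an unadjusted p under 0.05 in either direction): Fgf5 (-0.62 ± 0.13, adjusted p = 0.00632) and Fgf18 (-0.26 ± 0.07, adjusted p = 0.0252). The Fgf18 call ended without DMSO replicate 1 or 2 or ATRA replicate 1 or 3 (adjusted p = 0.0637 to 0.107). The levels of Fgf6, Fgf12, Fgf14 and Fgf16, each with means between 6.06 and 6.82, were within the range of the olfactory receptor genes. Fgf9 and Fgf13, with means between 6.93 and 7.17, lay around the 95th percentile of those genes. Fgf7 with DMSO (7.03) and ATRA (7.06), and Fgf20 and Fgf21 with DMSO (7.07 for both), were just below it.

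Co-receptors and genes that make or trim heparan sulfate moved in both directions at day 4: of 29 measured genes, 12 were higher and 11 lower (median -0.02), where 34.7% of all genes were called. Beside Klb, the glypican gene Gpc3 (1.72 ± 0.09) and Sulf1, which removes sulfate groups from heparan sulfate (1.42 ± 0.08), rose. Flrt2, whose product binds FGF receptors, fell (-0.92 ± 0.06). A larger fall, singled out after its value was seen, was that of the syndecan gene Sdc2 (-1.71 ± 0.12). Hs6st2, a heparan sulfate sulfotransferase gene, was also called lower, from 8.13 ± 0.35 in ES cells to 6.32 ± 0.10, a level within the range of the olfactory receptor genes, so the size of its fall was not measured. With ATRA against DMSO 8 of the 29 were lower and 2 higher (median 0.0011), where 13.3% of all genes were called. Ext1, which builds the heparan sulfate chain, fell by 0.67 on the log2 scale (adjusted p = 2.02e-06), Gpc4 by 0.56 (adjusted p = 3.38e-06) and Sulf1 by 0.51 (adjusted p = 0.00115). The 8 include the FGF carrier gene Fgfbp1, whose levels of 6.98 ± 0.11 with DMSO and 6.33 ± 0.06 with ATRA both lay within the range of the olfactory receptor genes, so its difference is not read as a change of expression. Of the 8, Gpc3 (-0.35) and Gpc6 (-0.26) lost their calls without DMSO replicate 1 or 3 or ATRA replicate 2 or 3 (adjusted p = 0.0505 to 0.099). The 2 higher genes were 0 or 1 when any 1 of the 6 arrays was left out. Gpc3 was the list's single call with DMSO against day 4 EBs (0.51 ± 0.09, adjusted p = 0.0311), and it ended without any 1 EB array or without DMSO replicate 1 or 3 (adjusted p = 0.0548 to 0.162), with the replicate number as a block (adjusted p = 0.0536) and in a fit of the 2 groups alone (adjusted p = 0.102).

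Of the relay from receptor to ERK, 15 of 23 listed genes were measured here. At day 4, 4 were higher and 4 lower (median 0.05), against 34.7% of all genes called. Ksr1, a scaffold of the Raf and MEK kinases (-0.44 ± 0.05), the phosphatase gene Ptpn11 (-0.31 ± 0.04) and the adaptor genes Grb2 (-0.30 ± 0.04) and Shc1 (-0.34 ± 0.06) were the lower ones. The count of higher genes was 0 to 2 without ES replicate 1, ES replicate 3, EB replicate 1 or EB replicate 3. With ATRA against DMSO 2 were higher, Ksr1 (0.63 ± 0.05, adjusted p = 2.84e-06) and the Ras activator gene Sos2 (0.29 ± 0.05, adjusted p = 0.00283), a share near the 13.3% of all genes, and 0 were lower in limma (3 had an unadjusted p under 0.05 in either direction).

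Feedback and response genes of ERK numbered 20, of which 6 were higher and 8 lower at day 4 (median -0.13) and 4 higher and 10 lower with ATRA against DMSO (median -0.21), where 34.7% and 13.3% of all genes were called. Of the 4, Etv4 (0.19) lost its call without DMSO replicate 1 or 2 or any 1 ATRA array (adjusted p = 0.057 to 0.138). Median centring also ended that call (adjusted p = 0.0793). Of the 10, Myc (-0.27) lost its call without DMSO replicate 2 or ATRA replicate 1 or 3 (adjusted p = 0.0522 to 0.128). The inhibitor gene Spry2, the gene of the list with the largest fall with ATRA, fell by 0.77 (adjusted p = 1.23e-07). The ERK phosphatase genes Dusp9 (1.53 ± 0.07, 2.88-fold, adjusted p = 3.13e-08) and Dusp5 (0.68 ± 0.05, adjusted p = 1.41e-06) rose, and these were lower at day 4 than in ES cells (-0.82 ± 0.07 and -0.61 ± 0.05). The immediate early gene Egr1 fell at day 4 (-1.98 ± 0.06) and again with ATRA (-0.52 ± 0.06). The 6 genes higher at day 4 were Il17rd, Etv5, Etv1, Spred1, Spry1 and Spry4. Il17rd stood at 9.95 ± 0.05 in ES cells and 10.52 ± 0.03 at day 4, and Etv5 at 12.00 ± 0.03 and 12.34 ± 0.02. The Spry4 rise (0.12, adjusted p = 0.0403) lost its call without any 1 array of these groups but EB replicate 1 (adjusted p = 0.05001 to 0.129).

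**Figure D4:**
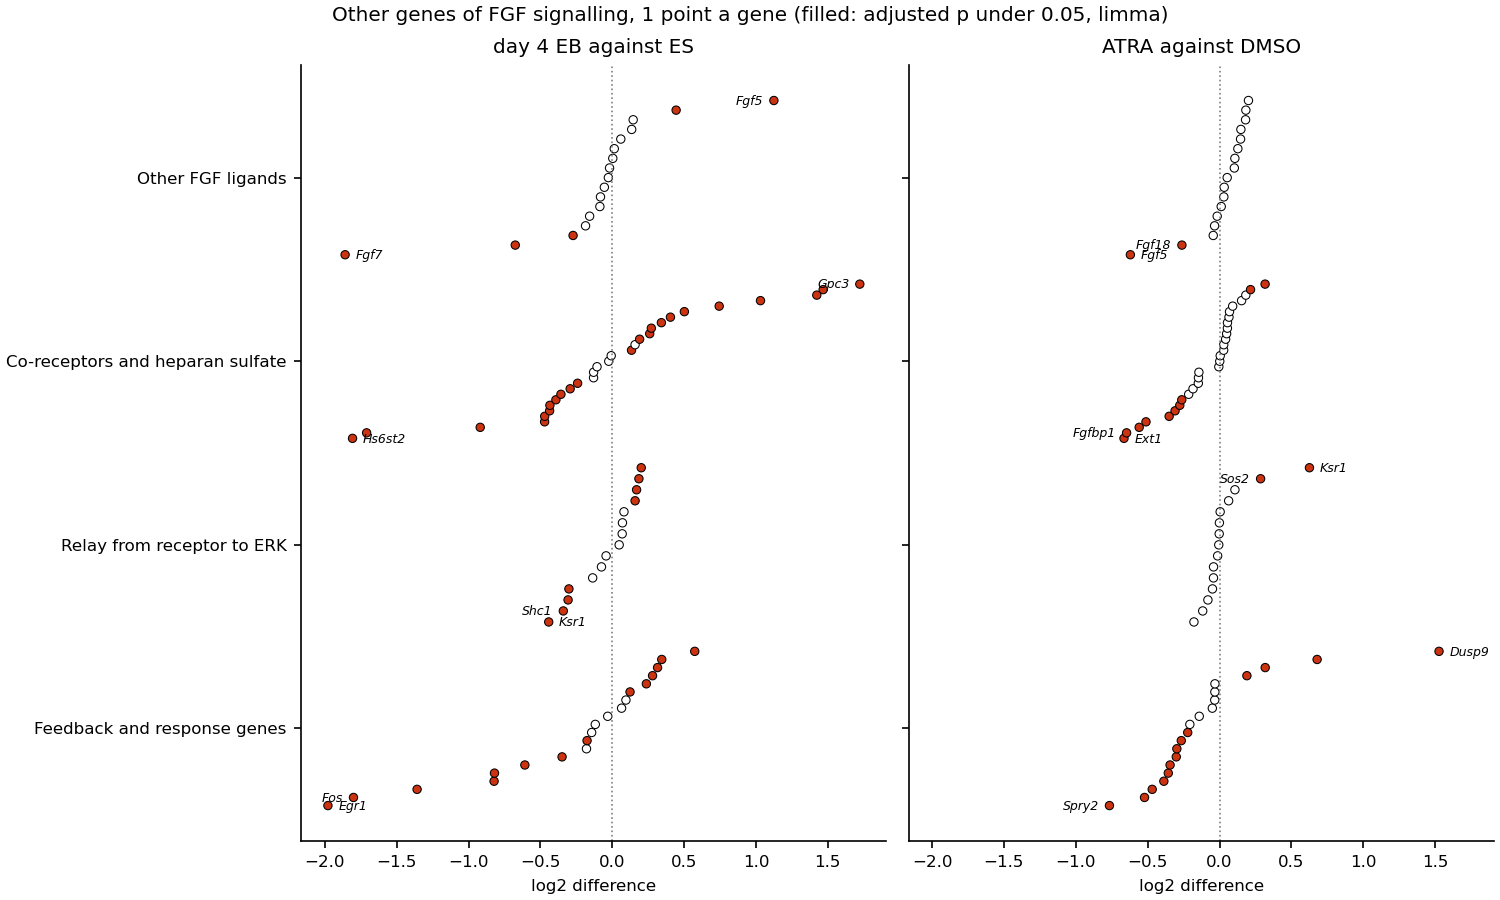
Log2 differences (horizontal axis) of the other genes of FGF signalling in 4 lists (vertical axis), 1 point a gene, for day 4 EBs against ES cells and ATRA against DMSO; filled points passed an adjusted p of 0.05 in limma. Most ligand genes lie near 0, while Fgf7 at -1.86 and Fgf5 at 1.12 stand apart at day 4, and Dusp9 at 1.53 with ATRA. The day 4 level of Fgf7 lay close to the background level.

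Markers of cell types that such cultures could hold moved with these genes. Beside the counts below, the shares of all genes called were 34.7% at day 4 and 13.3% with ATRA against DMSO. Against untreated day 4 EBs the shares were 18.4% with ATRA and 0.747% with DMSO. Primed epiblast markers, Fgf5 among them, rose in 5 of 5 cases at day 4 and fell in 4 of 5 with ATRA against DMSO. Of these 4, Pou3f1 (-0.20 ± 0.06) lost its call with quantile normalization (adjusted p = 0.071). It also did so without DMSO replicate 1 or 2 or any 1 ATRA array (adjusted p = 0.081 to 0.128). Against untreated day 4 EBs, 2 of the 5 were lower with ATRA and 1 was higher (Zic2, 0.32 ± 0.09). With ATRA against ES cells, 4 of the 5 were higher and 1 was lower (Dnmt3b, -0.17 ± 0.05), where 36.6% of all genes were called. The mean level of the 5 ran from 8.71 to 8.80 in ES arrays and 9.83 to 9.95 at day 4. It ran from 10.17 to 10.18 with DMSO and 9.41 to 9.50 with ATRA. Visceral endoderm markers rose in 7 of 8 cases at day 4 and fell in 5 of 8 with ATRA against DMSO, with means of 8.49 to 8.56, 9.74 to 9.96, 10.20 to 10.43 and 9.96 to 10.13 in the same order. Of the 7, Afp stood at 6.66 ± 0.12 in ES cells and 6.94 ± 0.19 at day 4, within the range of the olfactory receptor genes. Its day 4 call ended without ES replicate 1 or 3 or EB replicate 1 or 2 (adjusted p = 0.101 to 0.144). A fit of the 2 groups alone also ended it (adjusted p = 0.0919). The count with ATRA was 2 or 3 without DMSO replicate 1 or 3 or ATRA replicate 2 or 3. Against untreated day 4 EBs, 4 of these 8 were higher and 0 lower with ATRA (among them Apoa1, 0.65 ± 0.10, and Rbp4, 0.58 ± 0.11), and 3 were higher with DMSO (0 without EB replicate 1 or DMSO replicate 1, 1 without DMSO replicate 3, 2 without EB replicate 3). Fibroblast markers fell in 9 of 11 cases at day 4, from means of 9.58 to 9.60 in ES arrays to 8.45 to 8.57, beside the falls of Fgf7, Fgf2, Fgfr1 and Fgfr3. With ATRA their mean was 8.45 to 8.48, against 8.42 to 8.48 with DMSO, while single markers moved both ways: 2 of 11 rose, Pdgfrb by 1.497 ± 0.043, and 4 fell, Dcn by 0.41. Pluripotent cell markers were 12.63 to 12.65 with ATRA and 12.75 to 12.78 with DMSO, 3 of 8 called lower (Zfp42, Klf4 and Sox2), and 1 without any 1 of DMSO replicates 1 and 3 and the 3 ATRA arrays. Neural progenitor markers were 9.20 to 9.28 with ATRA and 8.96 to 9.02 with DMSO, 2 of 5 called higher. An array has no true zero, so no marker can be called absent, and the part of these shifts in the FGF results was not tested. The labels do not say whether feeder cells were used.

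**Figure D5:**
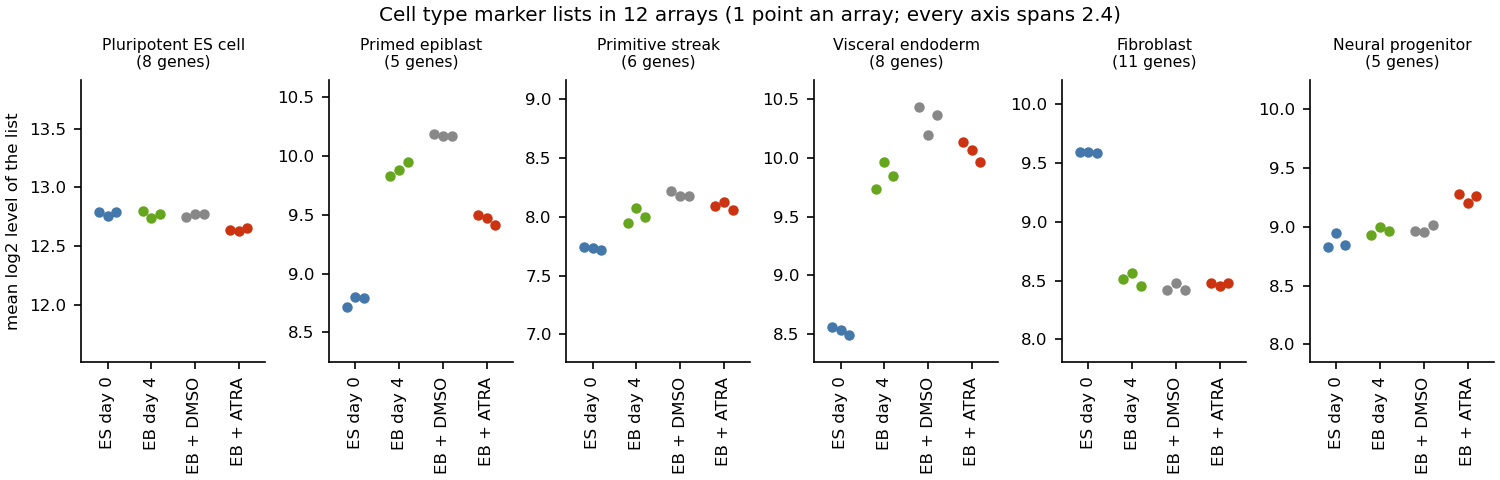
Mean log2 level of 6 marker lists (vertical axis, each spanning 2.4 log2 units) in the 12 arrays, 1 point an array, by group (horizontal axis). The mean of the primed epiblast markers has the order of Fgf4, lowest in ES cells and lower with ATRA than with DMSO. Single markers of that list differ: Dnmt3b is lowest with ATRA (10.27, against 10.44 in ES cells). Zic2 is higher with ATRA (10.48) than at day 4 (10.17). The mean of the fibroblast markers is highest in ES cells, between 9.58 and 9.60.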

How the data were processed

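RNA was isolated with the RNeasy mini kit and labelled as cDNA after the WT Expression kit, per the labels' protocols. The authors deposited 1 table of log2 values for 35556 probe sets and 12 arrays; the log2 scale is inferred from values of 2.30 to 14.7, and how background, normalization and probe summaries were handled is not given in these sources. Arrays loaded with a fixed amount of RNA do not show changes of total RNA per cell. Gene symbols came from the annotation of the platform: 21789 probe sets had 1 symbol, 1621 had several and 12146 were unlisted. Where several single-symbol probe sets read a gene, the brightest over the 12 arrays was kept, which gave 19938 genes with no filter. Group means were fitted to the 12 arrays with limma 3.58.1 (R 4.3.3; eBayes with 8 residual and 3.93 prior degrees of freedom). Tests were two-sided and p-values were adjusted over all genes by the Benjamini-Hochberg method. The code was tested on simulated data with known changes. The members and lists were chosen with earlier results of these data known. Named were the 9 members, from each list up to 4 called genes with the smallest adjusted p (or the 2 largest differences where none was called), and the 3 genes most like a member whose group means spanned 0.5. Fgf1, Fgf3, Hs6st2, Sdc2, Rbp4, Apoa1 against day 4 EBs and the 4 ligand genes at background level were named after their values were seen. So were Fgf9, Fgf13, Fgf20 and Fgf21, the markers Afp, Mesp1 and Wnt3, and Etv4 and Myc with ATRA against DMSO. The same holds for the 6 feedback and response genes higher at day 4, and for Gpc3 and Gpc6 with ATRA against DMSO. Not every gene the rule allows is printed. Alternatives were quantile normalization, median centring, probe sets of a gene averaged, a filter at the median of mean value, array weights, a robust prior with an intensity trend, a fit of the 2 groups alone, the replicate number as a block and each array left out; the joint omission of ES replicate 2 and EB replicate 2, and the alternatives for ATRA against day 4 EBs and DMSO against ES cells, were chosen after seeing the data. Listed genes with no single-symbol probe set in the table were not analysed here. Promoter windows came from RefSeq (GRCm38.p6).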

Additional observations from a re-analysis of the deposited data

How the results depend on the processing

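The calls of Fgf4 and Fgf10 between ATRA and DMSO and between day 4 EBs and ES cells, and of Fgf17 between ATRA and DMSO, held under all alternatives run for them. Over all results, 735 alternative values kept direction and call, 32 lost the call, 12 gained it, 11 turned sign and 20 counts moved by over 1.5 times; the cause was not tested.

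With array weights, 4311 genes were called between ATRA and DMSO (2655 without weights) and 11052 between ATRA and ES cells (7306 without), where 5 members were then higher. Array weights also gave calls to Fgf15 between ATRA and DMSO (-0.2266) and, against ES cells, to Fgf8 (0.14), Fgf17 (-0.17) and Fgfr2 (0.14), and turned Fgf8 at day 4 to -0.0061. Fgf15 between ATRA and DMSO (-0.2269) was also called with the filter at the median of mean value, with the trend and robust prior, and with the 2 groups alone. Fgfr2 between ATRA and ES cells was called with quantile normalization (0.20), median centring (0.20) and that filter (0.16), while Fgfr1 lost its call with median centring (-0.11). In fits of the 2 groups alone, Fgf17 (0.22) and Fgfr4 (0.23) lost their day 4 calls, leaving 2 members higher, and Fgf17 between ATRA and ES cells was called (-0.15). Between DMSO and day 4 EBs, 149 genes were called, against 253 with quantile normalization, 761 with the filter, 626 with the trend and robust prior and 25 with the 2 groups alone; 0 members were called in each of these. Without both ES replicate 2 and EB replicate 2, Fgf15 (-0.24) and Fgfr4 (0.15) lost their day 4 calls.

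With the replicate number as a block, Fgf17 at day 4 lost its call (0.22) and 62 genes were called between DMSO and day 4 EBs; Fgf15 between ATRA and day 4 EBs lost its call too, and no other member's call changed. Deviations of same-numbered arrays of different groups correlated at -0.126 to 0.506, and those of differently numbered arrays at -0.514 to 0.312. Of the 12 arrays, 3 correlated best with their own number. The numbers were not taken to pair the samples, and whether same-numbered samples share an origin was not tested.

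Leaving out 1 array gave 0 to 1 members higher between ATRA and DMSO and 2 to 3 at day 4. Fgfr3 ran from 0.24 to 0.34 between ATRA and DMSO. At day 4, Fgf8 ran from -0.040 to 0.10, Fgf15 from -0.34 to -0.19, Fgf17 from 0.16 to 0.29 and Fgfr4 from 0.19 to 0.28. Between DMSO and day 4 EBs, 0 to 128 genes were called, with Fgf15 from -0.057 to 0.087 and Fgf17 from -0.044 to 0.10. Fgf8 between ATRA and ES cells ran from 0.070 to 0.21, called without ES replicate 2, and Fgfr2 between ATRA and day 4 EBs from -0.034 to 0.094. The number of arrays, 3 a group, limits the precision.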
